A study of Mus musculus with 72 samples.

Results

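NANOG binding in mouse embryonic stem cells (ESCs) was mapped by ChIP-seq in WT cells and in cells lacking the chromatin proteins HMGN1 and HMGN2 (DKO). The 4 NANOG peak lists, 2 WT and 2 DKO, are 4 of the 64 peak lists among the 72 samples of the series. Peaks of the 4 lists that overlapped by at least 1 bp were merged into 79921 NANOG sites. Of these, 39762 were common sites, called in all 4 libraries. A further 1754 were called by each WT library but by no DKO library (WT-only), and 7541 by each DKO library but by no WT library (DKO-only). The other 30864 sites were called in some other combination of libraries.

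WT ESCs carried the genotype Hmgn1+/+n2+/+. The DKO ESCs were Hmgn1-/- n2-/-. Both came as ESC lines on the C57BL/6 strain, and the labels name no agent, time point or other allele for either. The series describes 2 biological replicates per genotype, but does not say how many lines stand behind them. A difference between genotypes thus cannot be told apart from a difference between lines, and the p-values given here rest on spread between libraries. In the limma tests this spread is in part pooled. For peak numbers the pool is the 16 antibodies of the series, those of fibroblasts and B cells included. For strength it is the common sites, and for chromosome shares the 20 chromosomes. A peak list comes from a population of cells, in which a smaller share of cells with NANOG at a site and weaker NANOG binding in each cell cannot be told apart.

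NANOG is a homeodomain transcription factor of the pluripotent cell. Together with OCT4 (encoded by Pou5f1) and SOX2 it occupies enhancers of the genes that keep ESCs undifferentiated, its own gene among them, and these factors often bind next to each other. OCT4 and SOX2 can bind as a pair to a composite DNA motif, KLF4 recognizes a CACCC sequence found in many promoters and enhancers, and CTCF marks insulators and loop anchors rather than pluripotency enhancers. HMGN1 and HMGN2 are nucleosome-binding proteins that counteract the compaction of chromatin, and the comparison of WT with DKO asks whether NANOG occupancy changes in their absence.

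The sequences below show what lies under NANOG summits (the position of highest signal) that the results turn on: the strongest site of each class by mean -log10 q, and sites at the 3 genes of the core pluripotency factors. Each is the forward strand of mm9 over 101 bases centred on the summit, and capitals mark a match to any of the 7 short motifs that were searched.
Strongest site of all 4 libraries, chr11:33437515-33437615: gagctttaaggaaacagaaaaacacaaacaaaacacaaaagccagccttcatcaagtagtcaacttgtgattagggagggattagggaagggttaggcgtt
Strongest WT-only site, chr2:49740983-49741083: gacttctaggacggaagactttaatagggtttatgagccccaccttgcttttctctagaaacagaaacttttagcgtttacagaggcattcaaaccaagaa
Strongest DKO-only site, chr7:55692072-55692172: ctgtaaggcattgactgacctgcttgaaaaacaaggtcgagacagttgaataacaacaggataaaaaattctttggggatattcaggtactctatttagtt
Pou5f1 upstream site, chr17:35640969-35641069: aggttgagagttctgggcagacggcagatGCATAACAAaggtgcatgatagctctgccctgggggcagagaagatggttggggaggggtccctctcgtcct
Pou5f1 start site, DKO-only, chr17:35642872-35642972: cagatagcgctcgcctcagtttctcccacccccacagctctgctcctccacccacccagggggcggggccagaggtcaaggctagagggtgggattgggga
Sox2 upstream site, chr3:34545282-34545382: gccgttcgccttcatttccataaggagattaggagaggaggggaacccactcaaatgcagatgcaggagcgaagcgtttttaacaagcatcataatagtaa
Sox2 far upstream site, DKO-only, chr3:34522971-34523071: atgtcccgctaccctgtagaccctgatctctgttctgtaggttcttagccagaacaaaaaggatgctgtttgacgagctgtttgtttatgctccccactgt
Sox2 downstream site, WT-only, chr3:34578550-34578650: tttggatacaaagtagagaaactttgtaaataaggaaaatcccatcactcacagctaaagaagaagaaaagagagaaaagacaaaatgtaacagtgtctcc
Nanog upstream site, chr6:122652570-122652670: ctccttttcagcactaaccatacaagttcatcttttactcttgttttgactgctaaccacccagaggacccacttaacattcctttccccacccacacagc
The strongest site called in all 4 libraries lay between genes, 23819 bp upstream of Ranbp17. The WT-only sequence lies in an intron of Lypd6b and the DKO-only sequence between genes, 19590 bp downstream of the start of Mrgprb1. One of the 9 sequences held a motif: the Pou5f1 upstream site, 1963 bp before the start and in the region known for the distal enhancer of the gene, carried the OCT4-SOX2 composite on the reverse strand. The DKO-only sequence 60 bp upstream of the Pou5f1 start was the most GC-rich of the 9, at 66.3% GC with 3 CG dinucleotides, and the WT-only Sox2 sequence the least, at 33.7% GC with none.

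NANOG peaks were more numerous in DKO than in WT ESCs, most of all at promoters. The WT lists held 52307 and 53524 peaks and the DKO lists 62697 and 64486, a 1.2-fold difference (log2 difference 0.27, SE 0.04, limma adjusted p = 0.0148, n = 2 libraries per genotype). Promoter peaks, defined by a midpoint no more than 1000 bp from a protein-coding start site, rose from 3717 and 4381 in WT to 6907 and 6934 in DKO, 1.71-fold more (log2 difference 0.78, SE 0.11, limma adjusted p = 0.0152). Distal peaks rose from 48590 and 49143 to 55790 and 57552 (log2 difference 0.21, SE 0.04, limma adjusted p = 0.0231). For all 3 counts the 2 genotypes did not overlap. The same held for all peaks and promoter peaks of OCT4, SOX2 and CTCF in these ESCs. CTCF passed neither test (limma adjusted p = 0.331 and 0.115), while the 3 NANOG counts were called. Each call was lost when certain single libraries were left out: that of all peaks without WT replicate 1, WT replicate 2 or DKO replicate 2 (limma adjusted p = 0.0967, 0.0811 and 0.051), that of promoter peaks without DKO replicate 1 or 2 (0.0761 and 0.0889), and that of distal peaks without WT replicate 1, WT replicate 2 or DKO replicate 2 (0.156, 0.126 and 0.0695).

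The promoter excess was tested directly as the log2 ratio of promoter to distal peaks in each library. It was higher in DKO by 0.56 (SE 0.10, limma adjusted p = 0.0229), and promoters took 11% and 10.8% of the DKO peaks against 7.11% and 8.19% of the WT peaks. These fits ran over the 16 antibodies of the series, of which 75% passed the threshold in either direction for all peaks, 75% for promoter peaks, 81.2% for distal peaks and 50% for the difference of promoter and distal peaks. A passing test was common in this series. The NANOG promoter excess missed the threshold without WT replicate 1 (limma adjusted p = 0.0666), DKO replicate 1 (0.136) or DKO replicate 2 (0.0964). Among the other factors of the same ESCs, the promoter excess was 0.45 for OCT4 (SE 0.08, limma adjusted p = 0.0229), 0.28 for SOX2 (SE 0.07, limma adjusted p = 0.0426), 0.14 for KLF4 (SE 0.15, limma adjusted p = 0.503) and 0.07 for CTCF (SE 0.06, limma adjusted p = 0.468).

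**Figure D1:**
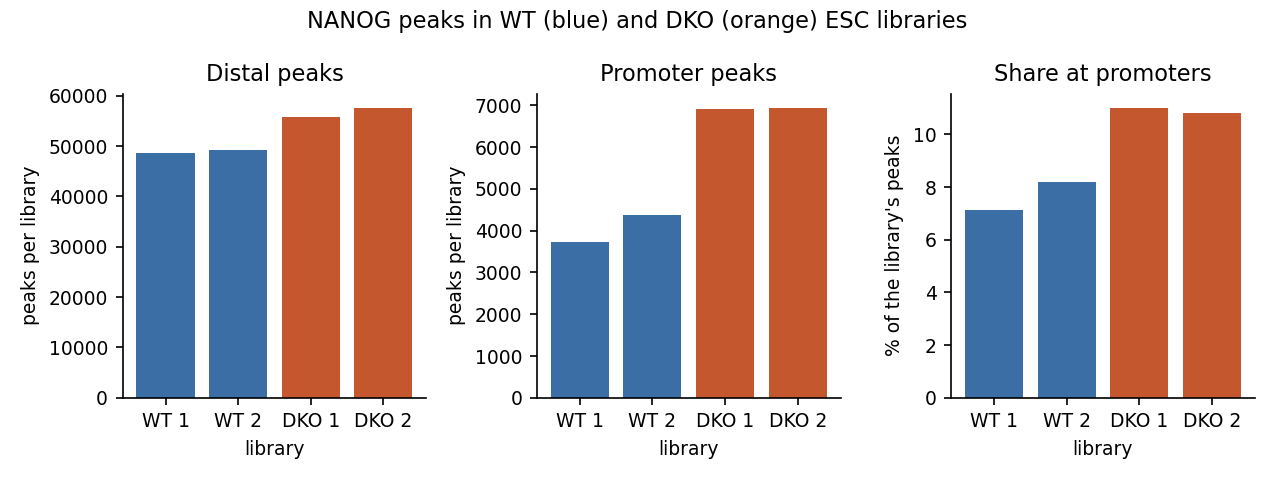
Number of distal NANOG peaks, number of promoter NANOG peaks and share of peaks at promoters (y axes) in each of the 4 ESC libraries (x axis), 1 bar per library, WT in blue and DKO in orange. Promoter peaks number 3717 and 4381 in the WT libraries and 6907 and 6934 in the DKO libraries.

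The size of the difference in peak number depended on how the lists were cut. At a q of at most 0.0001 it stayed at 0.27 for all peaks (limma adjusted p = 0.0143). At a fold enrichment of at least 5 it was 0.14 for all peaks, 0.49 for promoter peaks and 0.11 for distal peaks (limma adjusted p = 0.0303, 0.0175 and 0.0403). The lowest background that the peak caller used, solved from its fold enrichments and p-values, was 1.46 in both WT libraries and 1.99 in both DKO libraries. In an alternative chosen after seeing the data, the pileup and background of each library were scaled to the lowest of these and a summit had to reach a -log10 p of 10. This left 43681 and 43506 peaks in WT and 44226 and 44054 in DKO (log2 difference 0.02, SE 0.03, limma adjusted p = 0.557). Scaling alone kept the difference at 0.25 (SE 0.04, limma adjusted p = 0.0157). With the threshold the distal difference was -0.01 (limma adjusted p = 0.707). Promoter peaks remained more numerous in DKO, by 0.41 (SE 0.07, limma adjusted p = 0.0208), and so did the ratio of promoter to distal peaks, by 0.43 (SE 0.08, limma adjusted p = 0.023).

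DKO-only sites were rich in promoters. Of the 7541 DKO-only sites, 1785 (23.7%, 95% Wilson interval 22.7 to 24.6) had their strongest summit within 1000 bp of a start site, against 105 of 1754 WT-only sites (5.99%, 4.97 to 7.2) and 2689 of 39762 sites called in all 4 (6.76%, 6.52 to 7.01). The intervals cover counting error only, and sites of the same libraries are not replicates. WT-only sites made up 2.19% and DKO-only sites 9.44% of all merged sites. These shares describe the lists and carry no test. The input background at the summit, as a multiple of the lowest value of the library, had a median of 2.38 and 2.46 at DKO-only promoter sites and 1.67 in both libraries at DKO-only distal sites. At WT-only promoter sites it was 1.71 and 1.79, and at WT-only distal sites 1.37 in both. At common promoter sites the input background was 2.26 and 2.27 in the WT libraries and 2.52 in both DKO libraries. Its part in the promoter share was not tested. The median distance to a start site was 36978 bp for WT-only, 27417 bp for common and 14375 bp for DKO-only sites.

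The promoter share was higher where fewer WT libraries had called a site. Among sites called by both DKO libraries it was 6.76% with both WT libraries, 16.2% with 1 and 23.7% with none. Among sites called by 1 DKO library it was 6.97%, 11.2% and 16.8% in the same order. Where both WT libraries called a site, the share was 5.99%, 6.97% and 6.76% with 0, 1 and 2 DKO libraries, and sites found in a single WT list had 9.42%. It was also higher at weak sites: among sites called in all 4 libraries, split into 10 classes of equal size by strength, it went from 11.2% in the weakest class to 3.6% in the strongest. The mean -log10 q is taken over the libraries that called a site, 4 for common and 2 for single-genotype sites, so strength is not like for like between classes. Between a mean of 15 and 20, 153 of 640 DKO-only sites (23.9%) and 415 of 5152 common sites (8.06%) lay at promoters, against 1 of 49 WT-only sites. Between 50 and 100, 0 of 4 DKO-only sites and 3.76% of common sites did. These shares carry no test.

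**Figure D2:**
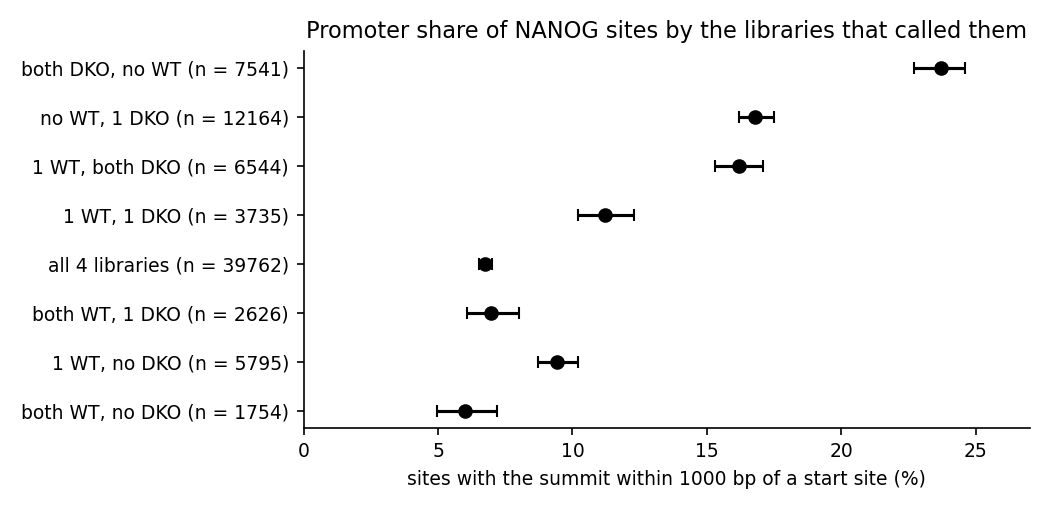
Share of NANOG sites with the strongest summit within 1000 bp of a protein-coding start site (x axis, %), for each combination of libraries that called the site (y axis, with the number of sites), with 95% Wilson intervals that cover counting error only. The share is 23.7% for DKO-only sites and 5.99% for WT-only sites.

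When the lists were brought to equal length by keeping the 52307 top peaks of each, WT-only and DKO-only sites were nearly equal in number, 3244 and 3597. With the scaled lists held to a -log10 p of 10 they numbered 2569 and 3044. The promoter share of the DKO-only sites was then 21.5% and 20.9%, and that of the WT-only sites 7.55% and 5.25%. The number of sites of one genotype alone thus moved with the length of the lists, and the higher promoter share of the DKO-only sites was seen under both settings.

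The sites found in 1 genotype alone were narrower and weaker than the common sites, which the way the classes were made favours. Strong sites are less likely to be missed by a library, so these values only describe the classes. The fold enrichment, the caller's ratio of ChIP pileup to background, had a median of 9.65 and 9.61 in the WT libraries and 9.94 and 9.96 in the DKO libraries over the common sites. It was 5.89 and 5.83 over the WT-only sites, and 5.26 and 5.14 over the DKO-only sites. The median width of a site was 405 bp for common, 235 bp for WT-only and 269 bp for DKO-only sites. A width spans the merged peaks of 4 libraries at common sites and of 2 at the others, so widths are not like for like. Of the 6358 sites with a mean -log10 q of 100 or more, 6357 were called in all 4 libraries and none in 1 genotype alone.

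DKO-only promoter sites were richer in CG dinucleotides than common promoter sites. Within 100 bp of the summit their median GC content was 61.2% with 14.5 CG dinucleotides on average, against 54.2% and 8.97 at common promoter sites and 54.7% and 9.47 at WT-only promoter sites. All 8835 NANOG promoter sites together had 58.7% and 12.2, and all 45968 protein-coding start positions had a median of 59.2% and 12 in windows of the same length. These values carry no test. Away from promoters the classes were closer, with 47.3% GC at DKO-only distal sites and 45.8% at both common and WT-only distal sites.

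The OCT4 and SOX motifs were most frequent at the common sites, and a NANOG-type homeodomain sequence was least frequent at the DKO-only sites. Motifs were searched within 100 bp of the summit on both strands, and compared with windows of the same length 5000 bp to either side. TTGTNATGC, the core of the OCT4-SOX2 composite, occurred at 3.98% of common sites, 2.28% of WT-only and 1.5% of DKO-only sites, against 0.528%, 0.542% and 0.391% of their flanking windows. The octamer ATGCAAAT of OCT4, which can overlap that composite, occurred at 5.43%, 3.53% and 3.96%, with 1.26% to 1.3% in the flanks. TAATGG, a homeodomain sequence bound by NANOG, occurred at 13.5% of common sites and 15.6% of WT-only sites but at 8.63% of DKO-only sites, close to the 7.89% of their flanks. ACAATGG, the SOX sequence, stood at 9.95%, 8.61% and 6.5%, with 3.09%, 3.05% and 2.92% in the flanks.

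At DKO-only promoter sites the 4 motifs were less frequent than at common promoter sites. TAATGG was found in 52 of 1785 (2.91%), below the 8.26% of common promoter sites and beside 3.61% of all start sites. TTGTNATGC was found in 4 of 1785 (0.224%), against 1.64% of common promoter sites and 0.313% of all start sites. ATGCAAAT was found in 1.29%, against 3.24% of common promoter sites and 0.781% of all start sites, and ACAATGG in 1.85%, against 4.72% and 1.88%. AGNNGGCGC, part of the CTCF motif and rich in CG, was found in 9.02% of DKO-only promoter sites and 4.46% of common promoter sites, beside 7.23% of all start sites. The KLF sequence CCACACCC was found in 3.31% and 4.69%, beside 2.26% of all start sites. A match is a string of letters and not a bound site. The part of base composition in these shares was not tested.

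Among DKO-only distal sites, by contrast, all 7 motifs were above their flanks, TAATGG least by ratio (1.3-fold). TAATGG stood at 10.4% against 8.01% of the flanks, below its 13.9% of common and 16% of WT-only distal sites. TTGTNATGC stood at 1.89% against 0.417% of the flanks, ATGCAAAT at 4.79% against 1.41%, CCACACCC at 6.48% against 1.62%, and TCAAGGTCA, the sequence of the orphan receptor ESRRB, at 2.73% against 0.625%. For TCAAGGTCA the classes were close, at 2.64% of common and 2.24% of WT-only distal sites.

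SOX2, mapped in the same ESCs, sat almost wholly at the common NANOG sites. SOX2 peaks overlapped 25.3% and 25.1% of the common NANOG sites in the WT lists and 38.3% and 40.5% in the DKO lists, and 98.7% of the peaks in each WT SOX2 list lay at a common NANOG site. Of the 1754 WT-only sites, 12 and 8 (0.684% and 0.456%) overlapped a WT SOX2 peak, against 3 and 4 (0.171% and 0.228%) for the DKO SOX2 lists. Of the DKO-only sites, 2.69% and 2.78% overlapped a DKO SOX2 peak, against 0.119% and 0.0928% for the WT SOX2 lists. SOX2 was thus found at few sites of either single-genotype class, and there more often in the lists of the genotype that had the NANOG peak. For the WT-only sites these counts are very small. The SOX2 lists held 10324 and 10222 peaks in WT and 16174 and 17144 in DKO, and the part of their length was not tested.

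OCT4 also overlapped the common sites most, and more of the single-genotype sites than SOX2 did. OCT4 peaks overlapped 17.7% and 19.4% of the common sites in the WT lists and 35.2% and 38.5% in the DKO lists. For the DKO-only sites the overlap was 11.7% and 13.3% with the DKO lists and 2.88% and 3.73% with the WT lists. For the WT-only sites it was 8.55% and 10.4% with the DKO lists and 3.31% and 4.33% with the WT lists, so that OCT4 peaks of the DKO cells overlapped more of the WT-only NANOG sites than those of the WT cells did. The OCT4 lists themselves held 11140 and 12627 peaks in WT and 26742 and 30864 in DKO. The part of list length in these overlaps was not tested.

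KLF4 and CTCF peaks overlapped DKO-only promoter sites about as often as NANOG promoter sites in general. KLF4 peaks overlapped 12% and 6.83% of DKO-only promoter sites in the WT lists and 10.5% and 13.1% in the DKO lists, against at most 2.12% of the DKO-only distal sites in any list. Over all 8835 NANOG promoter sites the overlap with KLF4 was 12.3% and 7.67% in the WT lists and 11% and 13.1% in the DKO lists, and over common promoter sites 13.5% to 20.3%. CTCF peaks overlapped 14.3% and 15.5% of DKO-only promoter sites in the WT lists and 17.3% and 18.1% in the DKO lists, against 13.3% to 15.9% of all NANOG promoter sites and 11.7% to 13.8% of common ones. KLF4 or CTCF peaks were thus present at part of the DKO-only promoters in WT cells too. At WT-only promoter sites, which number 105, the overlap was 0.952% to 5.71% for KLF4 and 6.67% to 7.62% for CTCF. These shares carry no test.

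**Figure D3:**
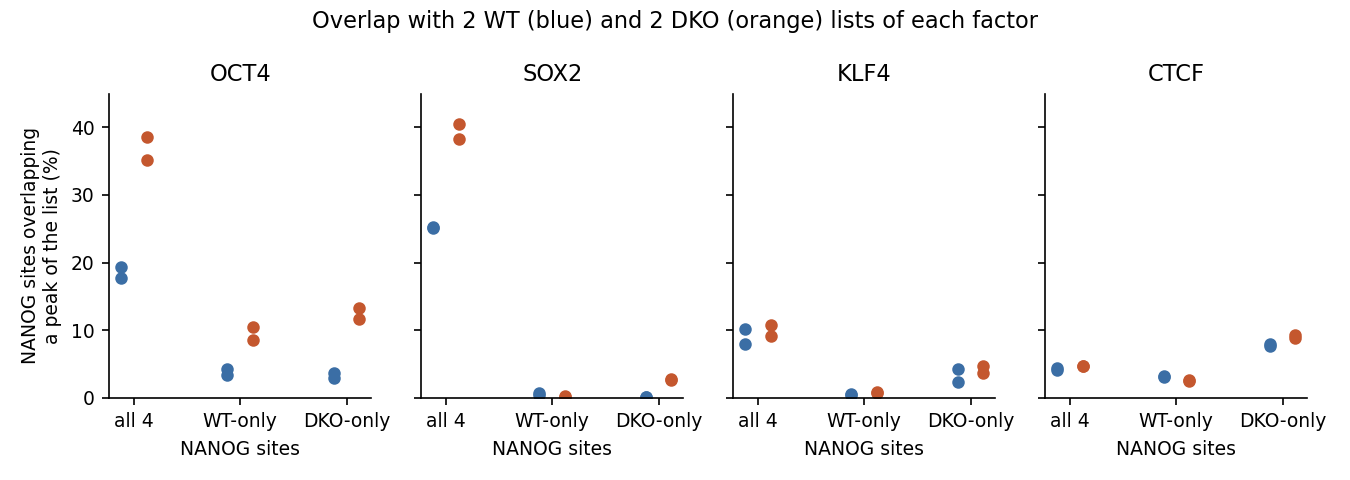
Share of NANOG sites that overlap a peak of OCT4, SOX2, KLF4 or CTCF by at least 1 bp (y axis, %), for sites called in all 4 libraries, WT-only sites and DKO-only sites (x axis), 1 point for each of the 2 WT lists (blue) and 2 DKO lists (orange) of the factor. SOX2 overlaps 38.3% and 40.5% of the common sites in the DKO lists and at most 2.78% of the single-genotype sites.

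At the sites called in all 4 libraries, the changes in fold enrichment were centred near 0. The median log2 difference in fold enrichment over the 39762 sites was 0.02. Single sites spread widely around it, with an SD of 0.56 across sites. By limma on log2 fold enrichment, 5152 sites were stronger in DKO, which is 13% of those tested, and 4403 were weaker, 11.1%. Among promoter sites 386 of 2689 were stronger and 246 weaker, and among distal sites 4766 of 37073 were stronger and 4157 weaker. With -log10 p in place of fold enrichment the median difference was 0.32 and 0 sites were called either way by limma, with 10879 stronger and 1432 weaker at an unadjusted p below 0.05. On fold enrichment without DKO replicate 1 the counts were 1167 stronger and 1077 weaker, and without DKO replicate 2 they were 1201 and 1046.

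The calls on fold enrichment moved with the input background more than with the NANOG pileup. The labels list more than 1 ESC input per genotype and do not say which served NANOG. The solved background at a site was the same in both WT libraries at 61.2% of sites and in both DKO libraries at 56.1%, but in WT replicate 1 and DKO replicate 1 at 5.16%. The log2 difference between DKO and WT had an SD across sites of 0.65 for the input background and 0.28 for the ChIP pileup, each a difference between means of 2 libraries. Sites called stronger had a median difference of 0.87 in fold enrichment, 0.10 in pileup and -0.91 in input. Sites called weaker had -0.86, -0.21 and 0.99. Both sets were selected on the ratio of pileup to input, so differences in these parts follow partly from the selection. If 1 input served both libraries of a genotype, its sampling error would be shared by them and a test over ChIP libraries would not count it. Whether 1 input was used, and the part of such an error in the calls, was not tested.

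On the pileup alone, divided by the lowest background of the library, a scale chosen after seeing the data, 5 sites were stronger in DKO (0.0126% of the 39761 sites with a solved pileup) and 19 weaker (0.0478%) by limma. At an unadjusted p below 0.05 there were 2293 stronger and 4075 weaker. Of the 24 sites called on pileup, 19 were also called on fold enrichment in the same direction, 3 stronger and 16 weaker. The counts of stronger and weaker sites therefore hold for the caller's ratio only.

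**Figure D4:**
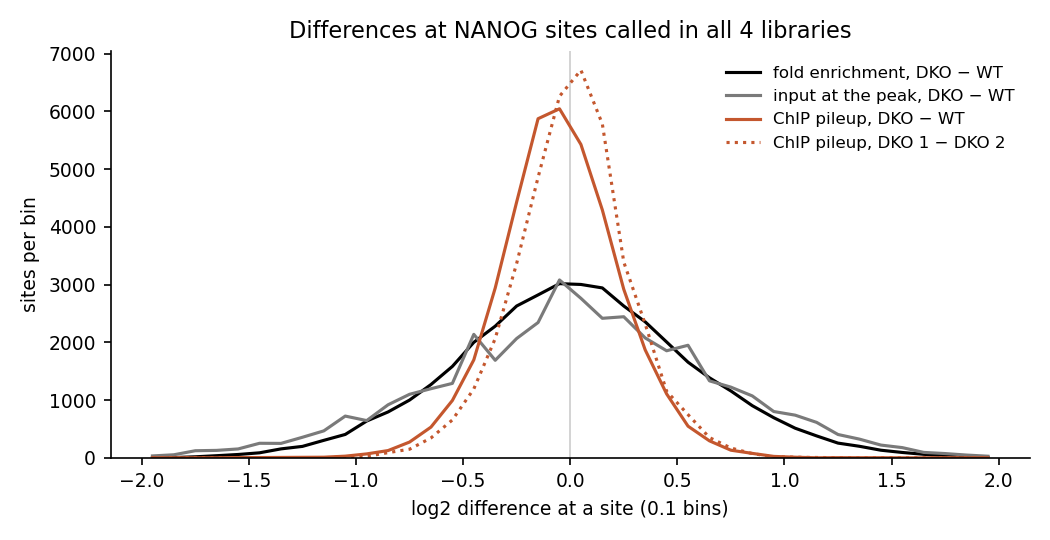
Number of common NANOG sites (y axis, per bin of 0.1) by log2 difference (x axis) for fold enrichment (black), input background at the peak (grey) and ChIP pileup (orange) between DKO and WT, and for ChIP pileup between the 2 DKO libraries (dotted). The pileup difference between genotypes has an SD of 0.28 and the input difference an SD of 0.65. Differences between genotypes are between means of 2 libraries and the dotted line is between single libraries, so their widths are not on the same footing.

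On the pileup scale no promoter site passed the test: of 2689, 0 were called stronger and 0 weaker by limma, and at an unadjusted p below 0.05 there were 419 and 151. The median pileup over background at the 2689 common promoter sites was 20.2 and 20.9 in WT and 22.9 and 22.5 in DKO, with no overlap between genotypes. At the 37072 distal sites it was 25.7 and 25.4 in WT and 24.9 in both DKO libraries. The log2 promoter-to-distal difference of these medians was -0.35 and -0.28 in WT and -0.12 and -0.15 in DKO, higher by 0.18 in DKO. The input background moved as much: its promoter-to-distal difference was 0.14 and 0.15 in WT and 0.32 in both DKO libraries, also higher by 0.18. On fold enrichment, the ratio of pileup to input, the difference was -0.54 and -0.47 in WT and -0.47 and -0.46 in DKO, a change of 0.04 in which the genotypes met. By the exact permutation test, two-sided, p = 0.333 for each of the 3, the smallest that 2 against 2 libraries can give, so none could have passed 0.05.

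The genes of the core factors kept NANOG at their strongest sites. Pou5f1, Sox2 and Nanog were the nearest genes of 37 sites within 50000 bp, of which 23 were called in all 4 libraries, 1 was WT-only and 2 were DKO-only. These shares are 62.2%, 2.7% and 5.41%, against 48.2%, 1.92% and 10.6% over all genes, and carry no test. At Pou5f1 the strongest site, 1963 bp upstream, had a fold enrichment of 44.6 and 37.4 in WT and 39.8 and 35.6 in DKO, with overlapping genotypes (log2 difference -0.12, SE 0.18, limma adjusted p = 0.676). A site 6091 bp upstream had 11.7 and 9.54 in WT and 4.26 and 4.92 in DKO. It was weaker in DKO on fold enrichment (log2 difference -1.21, SE 0.19, limma adjusted p = 0.00776) and had a pileup difference of -0.49 (SE 0.16, limma adjusted p = 0.224). The DKO-only site 60 bp upstream of a Pou5f1 start had 5.67 and 4.47 in the DKO libraries.

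Sox2 had 21 sites, 12 of them called in all 4 libraries. The strongest, 3595 bp upstream, had a fold enrichment of 58.6 and 56.1 in WT and 45.9 and 44.7 in DKO, lower in both DKO libraries but short of the threshold (limma adjusted p = 0.171). The site at the Sox2 start, in the 5' UTR exon, had 7.56 and 9.34 in WT and 17.3 and 19.3 in DKO and was stronger in DKO on fold enrichment (log2 difference 1.12, SE 0.19, limma adjusted p = 0.00891), with a pileup difference of 0.47 (SE 0.17, limma adjusted p = 0.244). A site 3946 bp downstream of the start, with 19.7 and 16.1 in WT and 35.6 and 29.5 in DKO, was also called stronger (limma adjusted p = 0.0201). A site 41621 bp downstream, with 18 and 18.5 in WT and 7.59 and 7.03 in DKO, was called weaker (limma adjusted p = 0.00579). On pileup the first differed by -0.10 (SE 0.16, limma adjusted p = 0.783). The second still differed by -1.03 (SE 0.16), without passing the threshold (limma adjusted p = 0.113). The DKO-only site 25906 bp upstream of Sox2 ranked 8 among all DKO-only sites, had 11.7 and 12.3, and also carried an OCT4 and a SOX2 peak.

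At Nanog itself the strongest site, 4887 bp upstream, had a fold enrichment of 36.3 and 38.7 in WT and 34.4 and 28.4 in DKO (limma adjusted p = 0.321). The promoter site, 69 bp upstream of the start, had 11.8 and 11.1 in WT and 16.5 and 15.4 in DKO, higher in both DKO libraries without passing the threshold (limma adjusted p = 0.077). Sites 17208 bp and 13236 bp upstream were called stronger on fold enrichment, with log2 differences of 0.92 and 0.83 (limma adjusted p = 0.0261 and 0.0335). Their pileup differences were 0.47 and 0.22 (limma adjusted p = 0.21 and 0.534). No site nearest to Nanog was WT-only or DKO-only.

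**Figure D5:**
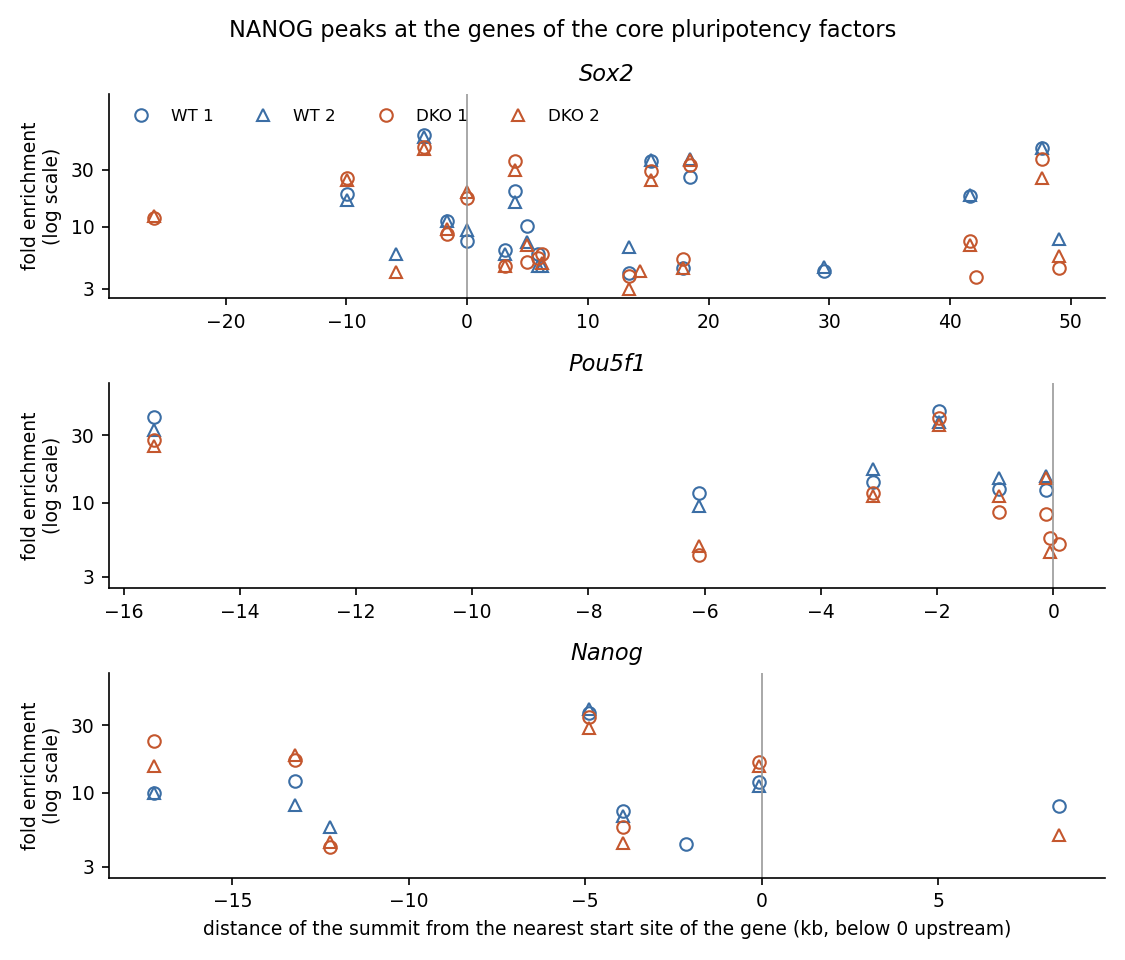
Fold enrichment (y axis, log scale) of each NANOG site nearest to Sox2, Pou5f1 and Nanog against its distance from the start site (x axis, kb), with WT in blue, DKO in orange, replicate 1 as circles and replicate 2 as triangles, and no point where a library has no peak. The strongest sites have points of all 4 libraries, and the DKO-only sites at Sox2 (25906 bp upstream) and Pou5f1 (at the start) have orange points alone.

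In the gene lists the share of DKO-only sites was close to that over all genes or below it. Of all 53314 sites within 50000 bp of a protein-coding start, 48.2% were common, 1.92% WT-only and 10.6% DKO-only. The naive pluripotency network, 26 genes that sustain the ground state, had 328 sites, 62.8% common, 1.83% WT-only and 6.4% DKO-only. Formative and primed genes had 121 sites with 7.44% DKO-only, endoderm and mesoderm specifiers 67 with 8.96%, and trophoblast and neural specifiers 85 with 10.6%, about the share over all genes. Among signalling genes the DKO-only share was 9.46% of 148 sites for FGF and ERK feedback, 6.9% of 87 for LIF and STAT3, 5.88% of 102 for NODAL and BMP and 5.69% of 123 for WNT. The genes of HMG proteins had 35 sites with 5.71% DKO-only, and the fibroblast genes 30 sites with 10% DKO-only. The HMG share rests on 2 DKO-only sites and the fibroblast share on 3. Some genes, such as Stat3 and Fgf4, are shared between lists. The lists were assembled from textbook roles, and their shares are descriptions without a test.

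Within the naive network, 12 of 26 genes had a DKO-only site and 5 a WT-only site, against 4554 and 957 of all 22238 genes. These genes held 12.6 sites each, against 2.4 over all genes, and their share of DKO-only sites was below that over all genes. Jarid2, which recruits the Polycomb complex, had 39 sites, 4 of them DKO-only and 1 WT-only. Of its DKO-only sites 2 lay at start sites, the stronger with a fold enrichment of 6.02 and 5.84. Esrrb, the orphan nuclear receptor of the naive state, had 34 sites with 2 DKO-only and 2 WT-only, and Nr5a2, another nuclear receptor, had 20 with 3 and 1. A DKO-only Nr5a2 site 12423 bp upstream was the strongest of this list, with a fold enrichment of 11.9 and 9.99. The promoter of Nr0b1, an orphan nuclear receptor of ESCs, had a DKO-only site 71 bp upstream of the start with 5.96 and 8.09.

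Among 13 FGF and ERK feedback genes, which held 11.4 sites each, 9 had a DKO-only site and 2 a WT-only site. Per site the DKO-only share, 9.46%, was again not above the 10.6% over all genes. Etv5, an ETS factor downstream of ERK, had 33 sites, 1 of them WT-only and 4 DKO-only, with 2 of the latter no more than 1000 bp from a start. Spry1, a feedback inhibitor of FGF receptors, had a DKO-only site 126 bp upstream of its start with 6.12 and 7.15, and Fgfr2 and Fgfr1 had DKO-only sites 191 bp and 60 bp upstream of a start with 4.32 and 4.22, and 4.12 and 4.3. Outside this list, the promoters of Id2, an inhibitor of basic helix-loop-helix factors (6.12 and 5.09), of Lgr4, a receptor for R-spondin (4.9 and 4.2), and of Fzd5, a WNT receptor (3.39 and 3.36), had DKO-only sites. WT-only promoter sites were found at Bmpr1a (6.29 and 3.68), Ctnnb1 (4.79 and 6.03) and Foxp1 (6.16 and 6.85).

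The strongest sites of each class lay mostly away from promoters, as did the whole classes. The promoter share over a whole class was 6.76% for common, 5.99% for WT-only and 23.7% for DKO-only sites. Counts among 10 sites are too few to set the strongest apart from these shares. None of the 10 strongest common sites and none of the 10 strongest WT-only sites was at a promoter, and 2 of the 10 strongest DKO-only sites were, at Tfip11 (12.5 and 10.6), which encodes a splicing factor, and Tspyl1 (12.5 and 10.1), a nucleosome-assembly-like protein. All 10 of the strongest common sites also overlapped OCT4 and SOX2 peaks of at least 1 list. Over all common sites, 41.3% overlapped OCT4 in any library, and 25.1% to 40.5% overlapped a single SOX2 list. Among the 10 strongest DKO-only sites, those near Mrgprb1, Bmp4, Zfp521, Kcnj15 and Sox2 overlapped both factors too. Among the 10 strongest WT-only sites, those near Efcab3 and Ankfn1 did. The strongest DKO-only site, downstream of Mrgprb1, had a fold enrichment of 29.8 and 26, and the second, 89849 bp upstream of Bmp4, a ligand that supports ESC self-renewal, had 20.8 and 15.1. Of the 10 strongest WT-only sites, the first 2 were in introns of Lypd6b (22.1 and 19.6) and Zfp536 (22.9 and 21), and 4 lay on chromosome 8, which held 2.62% WT-only sites among its 4193 sites against 2.19% over the genome.

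Among the common sites stronger in DKO, 5 with the lowest adjusted p rose 4.12-fold to 5.52-fold in fold enrichment. They were nearest to Lyzl1, Esrrg, Lhx3, Etv4 and Nlrp9b. At the intronic Etv4 site the fold enrichment was 3.29 and 2.91 in WT and 13.2 and 13.9 in DKO (log2 difference 2.13, SE 0.17, limma adjusted p = 0.00579), and at the Esrrg site 4.19 and 3.54 against 19.2 and 20.6. None of the 5 passed on pileup, where the log2 differences were 0.38 to 1.21, highest at the Lhx3 site (limma adjusted p from 0.0982 to 0.276). The adjusted p of the 5 weaker in DKO is tied with that of other sites, such as the Sox2 site 41621 bp downstream, so it alone does not define them. These 5 were nearest to Rbfox1, C230052I12Rik, Gm6616, Svip and Cyth2, and 3 of the 5 also passed on pileup. The Gm6616 and Cyth2 sites did not, with pileup differences of -0.98 and -0.63. The site 329935 bp upstream of Rbfox1 went from 37.1 and 31.7 in WT to 5.46 and 5.79 in DKO (log2 difference -2.61, SE 0.18, limma adjusted p = 0.00579, and 0.00201 on pileup). The site nearest to Svip went from 48.4 and 56.4 to 10.1 and 9.64 (limma adjusted p = 0.00579, and 0.00181 on pileup).

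The share of NANOG peaks by chromosome was close between genotypes, with small differences beyond the spread of replicates on 9 of 20 chromosomes. By limma on the log2 share, 4 of 20 chromosomes (20%) had a higher share in DKO and 5 (25%) a lower one. The lower calls numbered 2 without WT replicate 1, and 3 without DKO replicate 1 or DKO replicate 2. Chromosome 14 moved most, from 4.32% and 4.33% of peaks in WT to 4% and 3.97% in DKO (log2 difference -0.12, SE 0.01, limma adjusted p = 5.42e-05), followed by X, from 2.45% and 2.4% to 2.32% and 2.3% (log2 difference -0.07, limma adjusted p = 0.00463). Chromosome 11 went from 6.35% and 6.43% to 6.68% and 6.66% (log2 difference 0.06, limma adjusted p = 0.00405). DKO-only sites were 6.88% of sites on chromosome 14 and 7.12% on X, against 11% on chromosome 11.

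Peak lists give no check of the knockout itself. Within the bodies of Hmgn1 and Hmgn2 the ESC lists of NANOG, OCT4, SOX2, KLF4 and CTCF held 1 peak in all, a NANOG peak of WT replicate 2 at the start of Hmgn2 with a fold enrichment of 4.39. A common NANOG site 10753 bp downstream of the Hmgn2 start, had 19 and 12.9 in WT and 12.2 and 19 in DKO. All 8 marker genes of ESCs had NANOG sites in every library, 83 to 92 sites per library, and of 8 fibroblast marker genes 6 or 7 had sites in a given library, 11 to 15 per library. Over the longer list of 18 fibroblast genes, which holds these 8, 12 had a site in at least 1 library (66.7%), against 69.7% of all protein-coding genes. A NANOG site near a gene is not a measure of its expression, and none was made here.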

How the data were processed

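ChIP-seq was analysed from the deposited narrowPeak lists, 1 per library. The authors trimmed reads with CutAdapt, aligned them to mm9 with BWA, marked duplicates, removed blacklisted regions and called peaks per library against input with MACS2; versions in the submitters' processing notes are cutadapt 1.16, BWA 07.17 and MACS2 2.1.1.20160309. The deposited columns used are fold enrichment (a ratio), -log10 p-value and -log10 q-value; the deposited score column was not used. The lowest -log10 q in a NANOG list was 2.01. Read totals are not part of the lists, so pileup and background were solved for each summit from fold enrichment, (pileup + 1) / (background + 1), and the Poisson p. A solution was found for 100% of the NANOG peaks to 3 digits, and for 39761 of the 39762 common sites in all libraries. Solved backgrounds within 0.02 of each other were counted as the same.

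Sites, start sites and genes used mm9 and GENCODE vM1 protein-coding transcripts, of which older symbols were matched through RefSeq. The antibody tests used limma 3.58.1 in R 4.3.3 on log2(peaks + 0.5) over 16 antibodies, and the site tests limma on log2 fold enrichment over the common sites, with Benjamini-Hochberg adjustment and a threshold of 0.05. The limma tests were tried on simulated data with independent noise in each library. A background shared between libraries was not part of that simulation, so it does not cover such an error. Named sites were the 10 strongest per class and, in each direction, 5 common sites among those with the lowest adjusted p, which has ties. Also named were list genes with a WT-only or DKO-only site, the core factors, Hmgn1 and Hmgn2. A selection of the list genes is printed. Members and lists were chosen with earlier results of these data known. Alternatives were list thresholds, depth, overlap rules, windows, the scale of strength, a replicate block and leaving out each library.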

Additional observations from a re-analysis of the deposited data

Results flagged for a closer look

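The DKO effect on NANOG peak number differed between promoters and distal regions, by 0.56 on the log2 scale (SE 0.10, limma adjusted p = 0.0229, with a higher promoter-to-distal ratio in both DKO libraries than in either WT library). It is listed here because the difference itself passed a test. The call was lost without WT replicate 1, DKO replicate 1 or DKO replicate 2 (limma adjusted p = 0.0666, 0.136 and 0.0964), and the blocked fit below missed the threshold too (0.0565). Groups of 2 libraries are too small for a search for single outlying libraries.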

How the results depend on the processing

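Of the 101 alternatives other than leaving out a library, 71 kept direction and side of the threshold or stayed within 1.5 times or within the counting interval. A matched background with summits held to a -log10 p of 10 (added after seeing the data) ended the call of all peaks (0.02) and turned that of distal peaks (-0.01), and gave 3044 DKO-only sites and promoter shares of 5.69% for common and 20.9% for DKO-only sites. With the replicate block the distal difference (0.21, limma adjusted p = 0.0869) and the promoter excess (0.56, limma adjusted p = 0.0565) missed the threshold, while all peaks and promoter peaks kept it. Replicate numbers share no source in the labels, and the deviations of same-numbered libraries had a correlation of 0.00591 across common sites and 0.234 across antibodies. Leaving out 1 library gave log2 differences of 0.24 to 0.29 for all peaks, 0.66 to 0.90 for promoter peaks, 0.19 to 0.24 for distal peaks and 0.45 to 0.67 for the promoter excess. It gave 2851 to 4799 WT-only and 10430 to 14185 DKO-only sites, since 1 list then stands for a genotype, 1167 to 4353 stronger and 1046 to 3340 weaker sites (lowest without DKO replicate 1 or 2), and a median difference of 0.01 to 0.03. All peaks lost the call without WT replicate 1, WT replicate 2 or DKO replicate 2 (limma adjusted p = 0.0967, 0.0811 and 0.051), distal peaks without the same 3 (0.156, 0.126 and 0.0695), promoter peaks without DKO replicate 1 or 2 (0.0761 and 0.0889), and the promoter excess without WT replicate 1 or either DKO replicate (0.0666, 0.136 and 0.0964); the lone library is assumed to vary like the others. WT-only sites numbered 3130 at a fold enrichment of at least 5, 3244 with equal list lengths and 7549 where 1 library of the genotype sufficed, and DKO-only sites 3597 with equal lengths and 19705 where 1 sufficed. On -log10 p, 0 sites were called either way by limma (10879 stronger and 1432 weaker at an unadjusted p below 0.05), with a median of 0.32. On pileup (also added after seeing the data) 5 were stronger and 19 weaker, with a median of -0.05. Promoter shares were 6.47%, 7.55% and 21.5% for common, WT-only and DKO-only sites with equal lengths, and 11.5%, 9.69% and 28.3% with a window of 2500 bp. Within 50 bp of the summit TTGTNATGC stood at 2.54%, 1.37% and 1.03%. OCT4 of any library had its summit within 100 bp at 36.7%, 10.7% and 12.5%. Other causes were not tested. By chromosome, 6 to 9 of 20 shares passed when 1 library was left out and 12 with the replicate block (6 higher and 6 lower). A site missing from a list is one that did not pass, not one shown to be unbound.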
